A study of Mus musculus with 30 samples.

Results

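The 10 genes described here encode protein parts of the lipoproteins that the liver secretes, or proteins that act in their assembly. They are *Apoa1*, *Apoa2*, *Apoa4*, *Apoa5*, *Apob*, *Apoc2*, *Apoc3* and *Apoe*, which encode apolipoproteins, and *Mttp* and *Tm6sf2*, which act in the loading of apolipoprotein B with lipid. They were found by gene symbol in the count table, where 10 of 10 had a row among 55450 genes in all. Liver mRNA came from 30 male mice, 5 in each of 6 groups, with 1 library per mouse. In HFCFD2W, mice without *Cebpa* in hepatocytes (Cebpa ΔHep, Cre driven by the albumin promoter) and Cre-negative Cebpa fl/fl mice ate for 2 weeks a diet rich in fat, cholesterol and fructose (HFCFD). The other experiments, HFCFD8W+T10D and HFCFD12W+T10W, used the knockout Cebpa ΔHep,ERT2, in which an albumin-driven Cre acts only under tamoxifen. The labels give HFCFD and tamoxifen for knockout and Cebpa fl/fl mice alike. By the study's text, tamoxifen covered the last 10 days in HFCFD8W+T10D and the last 10 weeks in HFCFD12W+T10W, where the diet ran for 22 weeks in all. All 6 groups thus carry the floxed allele and ate the HFCFD, and no chow-fed liver is included. Mouse ages are not given in the labels. *Cebpa* encodes CCAAT/enhancer binding protein α, a transcription factor of hepatocytes and myeloid cells, and the comparison asks which of the 10 mRNAs differ between livers with and without hepatocyte CEBPA.

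Hepatocytes export triglyceride and cholesterol as very low-density lipoprotein (VLDL). Apolipoprotein B, a very large protein, is the backbone of each particle, and the microsomal triglyceride transfer protein, encoded by *Mttp*, moves lipid onto it in the endoplasmic reticulum. TM6SF2, a membrane protein of the endoplasmic reticulum and Golgi, is needed for full lipidation of the particle. Smaller apolipoproteins then exchange between particles in plasma. APOA1 and APOA2 are the main proteins of high-density lipoprotein (HDL), and APOE is the ligand for uptake by LDL receptor family members. Lipoprotein lipase, which releases fatty acids from the particles, is activated by APOC2, inhibited by APOC3 and promoted by APOA5. APOA4 is made by the intestine and, in the mouse, by the liver, where its mRNA is known to rise with hepatic triglyceride.

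Of the 10 genes, 6 lie in 2 clusters. On chromosome 9 of mm10, *Apoa1* (ENSMUSG00000032083.8, chr9:46228580-46230466, plus strand), *Apoc3* (ENSMUSG00000032081.10, chr9:46232933-46235636, minus strand), *Apoa4* (ENSMUSG00000032080.6, chr9:46240696-46243459, plus strand) and *Apoa5* (ENSMUSG00000032079.12, chr9:46268633-46271919, plus strand) lie within 43340 bp. On chromosome 7, *Apoc2* (ENSMUSG00000002992.17, chr7:19671579-19677941, minus strand) and *Apoe* (ENSMUSG00000002985.16, chr7:19696109-19699188, minus strand) lie within 27610 bp. The other 4 stand apart: *Apoa2* (ENSMUSG00000005681.12, chr1:171225054-171226379, plus strand), *Apob* (ENSMUSG00000020609.14, chr12:7977648-8016835, plus strand), *Mttp* (ENSMUSG00000028158.14, chr3:138089854-138144968, minus strand) and *Tm6sf2* (ENSMUSG00000036151.15, chr8:70072924-70080066, plus strand). All positions span the annotated gene, exons and introns together, and all 10 are annotated as protein coding in GENCODE M21.

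Promoter windows of 250 bases before to 50 bases after each RefSeq start (GRCm38.p6) were found for 8 of the 10 genes, in 12 windows. *Apoc3* and *Tm6sf2* are only named here. Short motifs were searched on both strands. The C/EBP-like motif TTGCNNAA was in 2 of these 12 windows, those of *Apob* and of an upstream alternative start of *Apoa2*, against 10.8% of all 32851 windows. The HNF4-like motif CAAAGNNCA was in 2 of 12, those of *Apoa4* and *Apob*, against 6.36%. The HNF1-like motif GTTAATNAT was in 0 of 12 against 0.801%, and TGACGT, the core of the cyclic AMP response element, was in 1 of 12, that of *Mttp*, against 7.51%. A match is a description of letters and not a shown binding site. Below are the bases just upstream of the annotated exons of *Apoa4* and *Apoa2*, which had the strongest differences among apolipoprotein A genes in different experiments, and of *Apob*, the backbone gene, which did not pass in any experiment. All are 5′ to 3′ on the plus strand, with the matches in capitals.
Apoa4 upstream, chr9:46240594-46240695: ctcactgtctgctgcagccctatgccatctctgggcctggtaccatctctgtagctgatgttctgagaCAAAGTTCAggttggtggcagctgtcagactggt
Apob upstream, chr12:7977427-7977647: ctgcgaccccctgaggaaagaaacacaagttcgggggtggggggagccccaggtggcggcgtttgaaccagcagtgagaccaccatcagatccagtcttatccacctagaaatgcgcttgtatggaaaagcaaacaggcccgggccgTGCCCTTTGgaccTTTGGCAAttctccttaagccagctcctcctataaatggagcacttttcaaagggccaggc
Apoa2 upstream, chr1:171224804-171225053: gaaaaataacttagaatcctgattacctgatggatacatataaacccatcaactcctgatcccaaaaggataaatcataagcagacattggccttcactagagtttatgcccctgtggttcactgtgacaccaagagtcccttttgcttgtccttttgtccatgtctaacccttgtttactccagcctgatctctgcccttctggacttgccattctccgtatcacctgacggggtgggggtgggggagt
In *Apoa4* the capitals are the HNF4-like match, whose first base lies 182 bases before the RefSeq start. In *Apob* the first capitals are the HNF4-like match 103 bases before the start and the second are the C/EBP-like match 90 bases before it, both read on the minus strand, and they do not overlap. The 250 bases before the main start of *Apoa2* held no match.

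The libraries held 7996123 to 10257347 counts. Levels of a gene across mice are given as CPM, counts scaled to a common library total. *Cebpa* itself averaged 177 CPM in Cebpa fl/fl and 4.74 CPM in knockout livers of HFCFD2W. The same groups of HFCFD8W+T10D averaged 144 and 17.2 CPM, and those of HFCFD12W+T10W 114 and 21.3 CPM. Every knockout library was below every Cebpa fl/fl library of its experiment, so the labels and the target gene go together. The CPM here use library totals adjusted by TMM, a scaling that assumes most genes do not differ. TMM factors were 0.961 to 1.03 in Cebpa fl/fl and 1.29 to 1.38 in knockout livers of HFCFD12W+T10W, so that there the choice of scaling moves every value, and results under library totals alone are given beside the TMM results. In whole liver, fewer cells of a type and less RNA per cell cannot be told apart. A gene is said below to rise, fall or pass only at an adjusted p under 0.05 over all genes tested, by edgeR's quasi-likelihood test within the experiment, and log2 fold changes are knockout over Cebpa fl/fl.

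The 10 genes covered a wide range of levels, from the most abundant mRNAs of these livers to a gene of low level. Levels between genes were compared as TPM, the share of transcripts of each gene after correction for transcript length. Together they held 6.29% to 6.83% of TPM as group means, and the group with the lowest mean, Cebpa fl/fl of HFCFD8W+T10D, was at 6.29% ± 0.434 (SD, n = 5). *Apoe* had the highest level, with group means of 26134 to 33522 TPM, ranking between 2 and 4 of all genes. *Apoa2* came next at 18897 to 23677 TPM. *Apoa1* at 4545 to 11858 TPM and *Apoc3* at 2184 to 4242 TPM followed in every group. *Apob* and *Apoa5* came next and were close to each other, with 1111 to 1611 and 1037 to 1297 TPM. *Apoc2* stood below *Apoa5* in 4 groups and above it in the knockout livers of HFCFD8W+T10D (1349 ± 120.3 against 1162 ± 249.8 TPM, SD, n = 5), a gap within the spread, and of HFCFD12W+T10W (1422 ± 179 against 1096 ± 104 TPM). *Apoa4* ranged more widely than the others, from 105 to 356 TPM. The 2 assembly genes were the least abundant, *Mttp* at 73.5 to 102 TPM and *Tm6sf2* at 12.2 to 34.3 TPM.

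**Figure D1:**
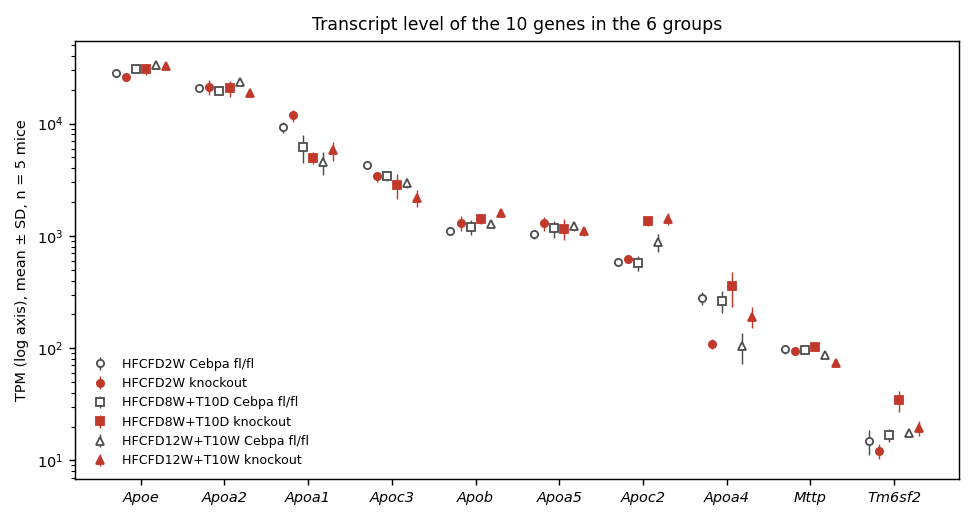
Mean TPM on a log axis of the 10 genes in the 6 groups (error bars are SD, n = 5 mice; open symbols Cebpa fl/fl, filled symbols knockout). *Apoe* and *Apoa2* lie highest and *Tm6sf2* lowest in every group, and *Apoa4* spans 105 to 356 TPM.

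In HFCFD2W, 3 of the 10 genes passed. *Apoa4* fell to 0.358 of its Cebpa fl/fl level, *Apoc3* fell less, and *Apoa5* rose slightly. All 3 are neighbours in the chromosome 9 cluster, whose remaining apolipoprotein gene, *Apoa1*, did not pass. As background, 8.60% of all genes tested rose and 8.09% fell in this experiment, 3.07% passed with a fold change over 2, as *Apoa4* alone did here, and 12.5% had groups that did not overlap, as 3 of the 10 genes had. *Apoa4*, the lipid-responsive apolipoprotein, was at 503, 563, 381, 425 and 577 CPM in the Cebpa fl/fl mice 1 to 5 and at 181, 177, 177, 187 and 154 CPM in the knockout mice 2 to 6. The 5 knockout livers lay close together and far below the lowest Cebpa fl/fl liver. The log2 fold change was -1.48 ± 0.12 (SE, adjusted p = 6.0e-06). *Apoc3*, the lipase inhibitor, was at 1358, 1485, 1155, 1382 and 1454 CPM against 1137, 992, 1055, 1079.8 and 938 CPM. The groups did not overlap, but the highest knockout mouse, mouse 2, came near the lowest Cebpa fl/fl mouse, mouse 3. Its log2 fold change was -0.39 ± 0.087 (SE, adjusted p = 0.0093), and the call was lost in the joint fit of all 30 libraries (adjusted p = 0.11). *Apoa5*, which promotes lipolysis, was at 1179, 1194, 1184, 1118 and 1175 CPM against 1238, 1449, 1428, 1489.7 and 1334 CPM. The Cebpa fl/fl livers were tightly spaced and all lay below the lowest knockout liver. The log2 fold change was 0.25 ± 0.075 (SE, adjusted p = 0.039), and the call was lost without any single mouse except knockout mouse 2, with log2 fold changes of 0.22 to 0.26 and adjusted p of 0.056 to 0.088.

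The other 7 genes did not pass in HFCFD2W, and all had overlapping groups. The backbone gene *Apob* averaged 7719 ± 443 CPM in Cebpa fl/fl and 8803 ± 716 CPM in knockout livers (SD, n = 5), a log2 fold change of 0.19 (adjusted p = 0.14). For the HDL genes it was 0.25 (adjusted p = 0.15) for *Apoa1* and -0.018 (adjusted p = 0.94) for *Apoa2*. For the receptor ligand *Apoe* it was -0.18 (adjusted p = 0.21), and for the lipase activator *Apoc2* 0.014 (adjusted p = 0.93). The assembly genes *Mttp* and *Tm6sf2* gave -0.17 (adjusted p = 0.18) and -0.41 (adjusted p = 0.15). *Tm6sf2* was the most variable of the 10 in the Cebpa fl/fl livers, with a coefficient of variation of 27.5%. The library scaling mattered little here, since under library totals alone the same 3 genes passed, with -1.45 (adjusted p = 5.8e-06) for *Apoa4*, -0.36 (adjusted p = 0.011) for *Apoc3* and 0.27 (adjusted p = 0.033) for *Apoa5*. Summed CPM of 10 hepatocyte marker genes overlapped between genotypes, at 136151 to 168324 and 136428 to 184894. Much of each sum came from the albumin gene *Alb*, with means of 84748 and 101316 CPM.

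In HFCFD8W+T10D, 10 days after the start of tamoxifen, 2 of the 10 genes passed, both higher in knockout livers. *Apoc2*, whose protein activates lipoprotein lipase, rose 2.04-fold, and *Tm6sf2*, the assembly gene with the lowest level, rose 1.79-fold. In this experiment 10.3% of all genes rose, 6.85% fell, 6.10% passed with a fold over 2, as *Apoc2* alone did among the 10, and 11.5% had groups without overlap, against these 2 of 10. *Apoc2* was at 239, 194, 220.3, 228 and 200.1 CPM in Cebpa fl/fl mice 1 to 5 and at 422, 373, 472, 489 and 435 CPM in knockout mice 1 to 5. The lowest knockout liver, mouse 2, lay well above the highest Cebpa fl/fl liver. The log2 fold change was 1.03 ± 0.11 (SE, adjusted p = 8.8e-05). *Tm6sf2* was at 18.8, 19.5, 20.9, 15.6 and 17.7 CPM against 33.5, 34.6, 31.3, 32.6 and 32.0 CPM. Both groups were tightly spaced and far apart. The log2 fold change was 0.84 ± 0.094 (SE, adjusted p = 1.0e-04). Under library totals alone both passed, at 1.201 (adjusted p = 1.7e-05) and 1.03 (adjusted p = 3.1e-04). *Apoc2* and *Apoe* are also expressed by macrophages, and the summed CPM of 10 macrophage markers was 613 to 1114 in Cebpa fl/fl and 1028 to 2016 in knockout livers, 7 of 10 of them passing as higher and none at 0. *Apoe* did not pass, at -0.15 (adjusted p = 0.69). The part of macrophages in the *Apoc2* and *Apoe* values was not tested.

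On TMM-scaled CPM the knockout livers of HFCFD8W+T10D varied more than any other group. The median coefficient of variation of the 10 genes was 26.9% there and 10.2% in the Cebpa fl/fl livers of the same experiment, while on library totals it was 15.6% and 10.2%, and on TPM 14.5% and 14.2%. Knockout mouse 2 was the lowest of its group for 8 of the 10 genes and mouse 4 the highest for 8, and their TMM factors were 1.28 and 0.903, the highest and the lowest of the group. On library totals the same mice were lowest for 7 and highest for 5 genes. *Apoc3* showed this most, with 516, 418, 692, 1134 and 751 CPM in knockout mice 1 to 5 against 909, 1053, 836, 983 and 1014 CPM in Cebpa fl/fl mice. Of these only knockout mouse 4 lay above the Cebpa fl/fl livers, and the other 4 lay below all of them. The log2 fold change was -0.44 ± 0.22 (SE, adjusted p = 0.20) with all mice. With 1 mouse left out it ranged from -0.68 (adjusted p = 0.016) without knockout mouse 4 to -0.30 without knockout mouse 2. Only the former of these 10 fits passed. *Apoa4*, lower in the knockout livers of HFCFD2W, was at 479.9, 291, 374, 381 and 405 CPM in Cebpa fl/fl and 648, 388, 567, 325 and 307 CPM in knockout mice 1 to 5. The groups overlapped, with knockout mice 1 and 3 above the Cebpa fl/fl range and the other 3 within it, and the log2 fold change was 0.22 ± 0.22 (SE, adjusted p = 0.53). The others also did not pass: -0.45 (adjusted p = 0.18) for *Apoa1*, -0.084 (adjusted p = 0.84) for *Apoa2*, -0.11 (adjusted p = 0.78) for *Apoa5*, 0.034 (adjusted p = 0.92) for *Apob* and -0.11 (adjusted p = 0.58) for *Mttp*. The hepatocyte marker *Alb* fell in this experiment, -0.94 (adjusted p = 0.034), together with 2 more of the 10 hepatocyte markers, whose summed CPM was 132677 to 166978 in Cebpa fl/fl and 91595 to 146307 in knockout livers. *Alb* alone averaged 96091 and 49641 CPM, so these sums mostly follow this 1 gene. The part of these falls in the values above was not tested.

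In HFCFD12W+T10W, after 10 weeks of tamoxifen, 6 of the 10 genes passed: *Apoa2*, *Apoa5*, *Apoc3*, *Apoe* and *Mttp* fell, and *Apoc2* rose. None reached 2-fold. In this experiment 23.8% of all genes fell, against 5 of the 10 genes, 27.4% rose, 17.7% passed with a fold over 2 and 39.1% had groups without overlap, as 5 of the 10 genes had. Calls were thus common among all genes. *Apoa2*, the second protein of HDL, was at 5340.3, 4762, 5573, 5781 and 6246 CPM in Cebpa fl/fl mice 1 to 5 and at 3669.9, 3211, 3416, 3326 and 2954 CPM in knockout mice 1 to 5, a log2 fold change of -0.70 ± 0.099 (SE, adjusted p = 8.5e-05). *Apoc3* was at 748, 778, 707, 702 and 822 CPM against 403, 325, 450.1, 509 and 383 CPM, a log2 fold change of -0.82 ± 0.11 (SE, adjusted p = 6.4e-05). *Mttp*, the lipid transfer gene, was at 278, 275, 269, 274 and 257 CPM against 172, 166, 171, 191 and 163 CPM, a log2 fold change of -0.61 ± 0.066 (SE, adjusted p = 1.0e-05). For all 3 genes the highest knockout liver lay clearly below the lowest Cebpa fl/fl liver, and *Mttp* had the tightest groups. *Apoa5* was at 1193, 1022, 1040.5, 1009 and 1064 CPM against 668, 608, 877, 791 and 581 CPM, with -0.55 ± 0.12 (SE, adjusted p = 0.0016). *Apoe* was at 17244, 15088, 18002, 15288 and 18115 CPM against 13224, 12269, 11529.8, 12379.9 and 12119 CPM, with -0.40 ± 0.094 (SE, adjusted p = 0.0033). These groups did not overlap either, with a smaller gap. *Apoc2* was at 242, 318, 281, 280.4 and 375 CPM against 395, 394, 305, 387 and 337 CPM, with 0.32 ± 0.12 (SE, adjusted p = 0.038). Its groups overlapped, since Cebpa fl/fl mice 2 and 5 lay within the knockout range, and the call was lost without knockout mouse 1, 2 or 4 or Cebpa fl/fl mouse 1, 2, 3 or 4, with log2 fold changes of 0.23 to 0.32 and adjusted p of 0.067 to 0.12.

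*Apoa4* did not pass in HFCFD12W+T10W, by a small margin. It was at 167, 122, 82.4, 137 and 188 CPM in Cebpa fl/fl and 149, 219.9, 158, 237 and 190.4 CPM in knockout livers, with a log2 fold change of 0.50 ± 0.20 (SE, adjusted p = 0.0502). The groups overlapped, and the gene passed without knockout mouse 1 or 3 or Cebpa fl/fl mouse 1 or 5, with log2 fold changes of 0.55 to 0.62. The backbone gene *Apob* averaged 6661 ± 715 against 6222 ± 868 CPM (SD, n = 5), with -0.055 (adjusted p = 0.72). *Apoa1* gave -0.033 (adjusted p = 0.90) and *Tm6sf2* -0.21 (adjusted p = 0.11).

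**Figure D2:**
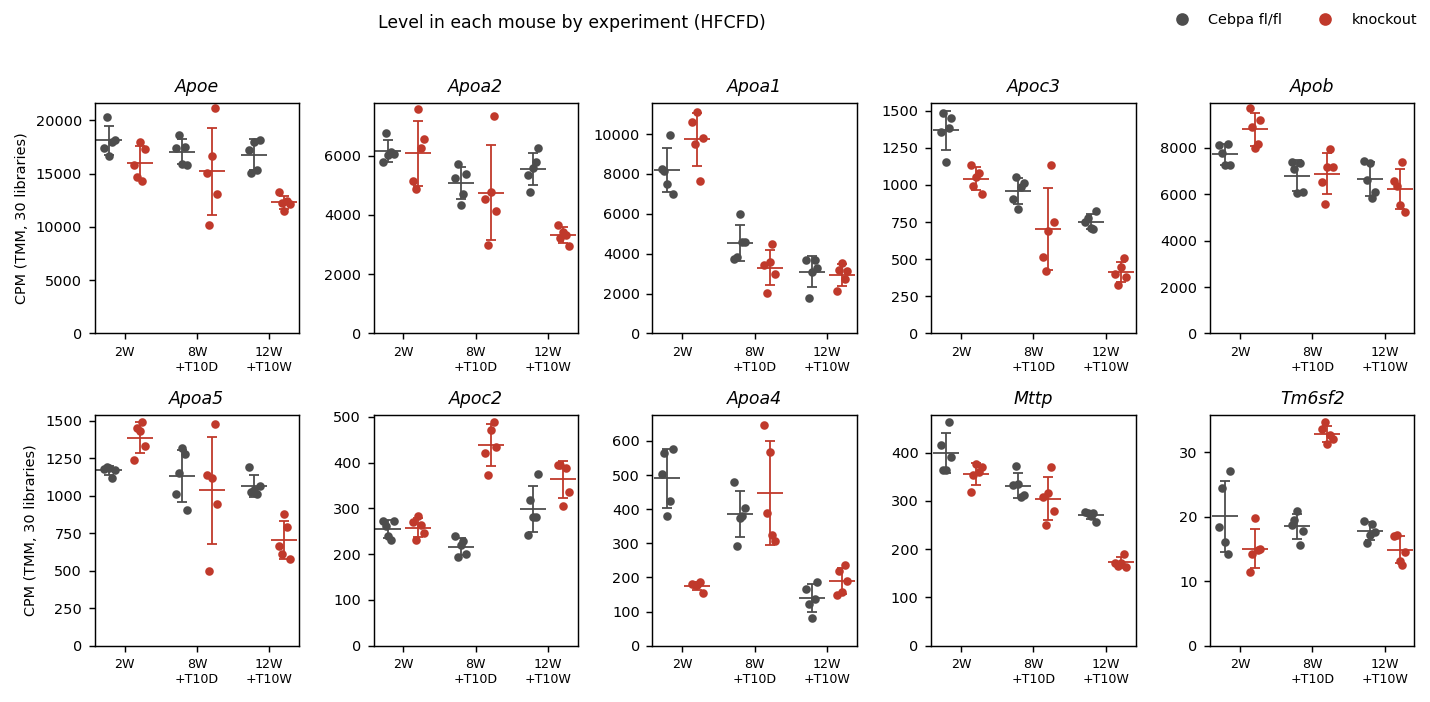
CPM (TMM over all 30 libraries, axes from 0) of each gene in each mouse, by experiment and genotype; lines are the mean and SD of 5 mice. In HFCFD2W the knockout *Apoa4* values of 154 to 187 CPM lie below the Cebpa fl/fl values of 381 to 577 CPM, and in HFCFD8W+T10D the knockout *Apoc2* values of 373 to 489 CPM lie above the Cebpa fl/fl values of 194 to 239 CPM.

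Fewer of these changes passed when libraries were scaled by their totals alone. This scaling moved the median log2 fold change of all genes tested in HFCFD12W+T10W from 0.013 to 0.38, and 56.6% of genes then rose and 7.72% fell, so that higher calls went from 53.5% to 88.0% of all calls. *Apoa2*, *Apoc3* and *Mttp* fell under both scalings, with -0.33 (adjusted p = 0.0050), -0.45 (adjusted p = 0.0029) and -0.24 (adjusted p = 0.0048) under library totals. *Apoa5* and *Apoe* no longer passed, at -0.19 (adjusted p = 0.14) and -0.031 (adjusted p = 0.76). *Apoc2* rose under both scalings, with 0.69 (adjusted p = 4.4e-04), and *Apoa4* and *Apob*, which had not passed under TMM, rose under library totals, with 0.87 (adjusted p = 0.0026) and 0.31 (adjusted p = 0.018). As CPM of unadjusted library totals, *Apoc3* was 673 to 839 in Cebpa fl/fl and 437 to 654 in knockout livers, and *Apoe* was 14677 to 18504 and 15072 to 17065. The *Apoc3* groups did not overlap on either scale, and the *Apoe* groups overlapped on the second. The median log2 fold change of the 10 genes was -0.31 under TMM, against 0.01 over all genes, and 0.07 under library totals, against 0.38. The scaling shifts both medians by about the same amount, so the second comparison adds nothing to the first. In HFCFD8W+T10D library totals moved the median of all genes to 0.19 and that of the 10 genes from -0.10 to 0.06, with 59.99% and 84.1% of calls higher, and in HFCFD2W to 0.03 and from -0.09 to -0.07.

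**Figure D3:**
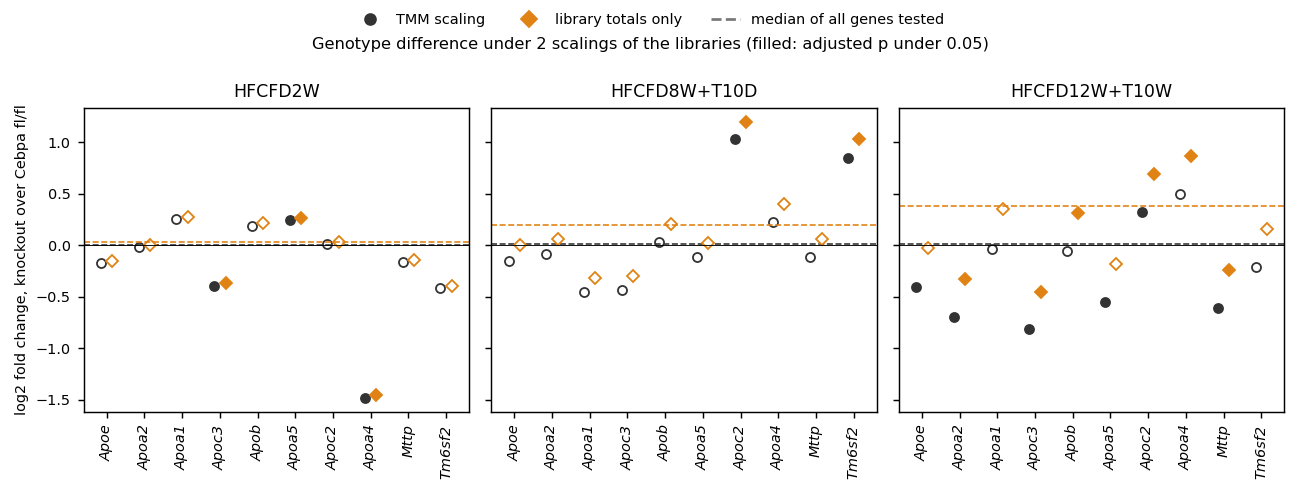
log2 fold change of each gene in the 3 experiments under TMM scaling (circles) and library totals alone (diamonds); filled symbols passed at an adjusted p under 0.05 and dashed lines are the median of all genes tested. In HFCFD12W+T10W the diamonds and their median of 0.38 lie above the circles and their median of 0.01.

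Markers of the cells of the liver differed in the same livers. In HFCFD12W+T10W the summed CPM of the 10 hepatocyte markers was 116377 to 144551 in Cebpa fl/fl and 76363 to 83812 in knockout livers, and 5 of the 10 fell, among them *Alb* with -1.10 (adjusted p = 8.9e-06). *Alb* alone averaged 77545 and 35080 CPM in these groups, so the sums mostly follow this 1 gene. All 10 stellate and fibroblast markers rose, with summed CPM of 337 to 410.5 in Cebpa fl/fl and 1198 to 1466 in knockout livers. So did 8 of 8 cholangiocyte markers, at 47.2 to 63.6 and 759 to 1059.6 CPM, and 3 of 4 tested lymphocyte markers. Of 10 macrophage markers 7 rose and 1 fell, with summed CPM of 299.6 to 830.4 and 999 to 1209. Of 8 endothelial markers 2 fell. The cholangiocyte list includes *Spp1*, the osteopontin gene, which the paper reports as induced in hepatocytes without CEBPA. That list is thus not specific to cholangiocytes here, and the part of *Spp1* in its sums was not tested. Under library totals 3 of the 10 hepatocyte markers rose and 5 fell, 8 macrophage markers rose and 1 fell, and 2 endothelial markers rose and 0 fell. Of all genes tested in HFCFD12W+T10W, 27.4% rose and 23.8% fell under TMM, and 56.6% and 7.72% under library totals. In HFCFD8W+T10D 4 of 7 tested cholangiocyte and 3 of 10 stellate markers rose, and in HFCFD2W 1 of 3 cholangiocyte, 1 of 10 stellate and 3 of 8 macrophage markers rose. No hepatocyte, stellate, cholangiocyte or macrophage marker was at 0 in all mice of a group. The part of these shifts in the lower *Apoa2*, *Apoa5*, *Apoc3*, *Apoe* and *Mttp* was not tested. Intestine also expresses *Apoa1*, *Apoa4*, *Apob*, *Apoc3* and *Mttp*, and of 8 enterocyte markers *Sis*, *Alpi*, *Cdx1* and *Cdx2* were at 0 in every group and *Lct* at or near 0. *Fabp2* averaged 71.4 to 124 CPM over the groups, and it rose in the knockout livers of HFCFD8W+T10D, by 0.37 (adjusted p = 0.029). *Rbp2* rose in knockout livers from 0.155 to 6.34 CPM in HFCFD8W+T10D and from 0.0456 to 3.07 CPM in HFCFD12W+T10W, where *Vil1* also rose. Their part was not tested.

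The genotype effects of the 3 experiments were compared in 1 fit of all 30 libraries. *Apoa4* had the largest difference of effects among the 10 genes. Its effect in HFCFD2W was lower than that in HFCFD8W+T10D, a difference of log2 effects (the later minus the earlier) of 1.69 ± 0.28 (SE, adjusted p = 1.9e-04), and lower than that in HFCFD12W+T10W, 1.94 ± 0.28 (SE, adjusted p = 1.2e-05). The rise of *Apoc2* in HFCFD8W+T10D differed from its value in HFCFD2W, by 1.00 ± 0.15 (SE, adjusted p = 3.9e-05), and from that in HFCFD12W+T10W, by -0.74 ± 0.15 (SE, adjusted p = 0.0020). The effect on *Tm6sf2* in HFCFD8W+T10D also differed from both others, with 1.24 ± 0.20 (SE, adjusted p = 1.3e-04) against HFCFD2W and -1.08 ± 0.19 (SE, adjusted p = 9.2e-04) for HFCFD12W+T10W against it. *Mttp* had a lower effect in HFCFD12W+T10W than in HFCFD8W+T10D, -0.53 ± 0.12 (SE, adjusted p = 0.0081), and than in HFCFD2W, -0.48 ± 0.12 (SE, adjusted p = 0.0043). For *Apoa5* and *Apoa2* the effect in HFCFD12W+T10W was lower than in HFCFD2W, with -0.84 ± 0.24 (SE, adjusted p = 0.0073) and -0.72 ± 0.22 (SE, adjusted p = 0.013). Under library totals alone these last 2 and the *Mttp* difference from HFCFD2W no longer passed: -0.33 (adjusted p = 0.096) for *Apoa2*, -0.45 (adjusted p = 0.068) for *Apoa5* and -0.09 (adjusted p = 0.39) for *Mttp*. In all, 3 of 10 genes passed between HFCFD8W+T10D and HFCFD2W against 11.2% of all genes, 3 between HFCFD12W+T10W and HFCFD8W+T10D against 10.5%, and 4 between HFCFD12W+T10W and HFCFD2W against 30.7%. The share of higher calls among all calls went from 39.6%, 47.5% and 43.6% under TMM to 77.0%, 83.4% and 87.0% under library totals in these 3 comparisons. *Apoa1*, *Apob*, *Apoc3* and *Apoe* passed in none of the 3 under TMM. Diet time, length of tamoxifen and the batch of mice differ together between all experiments, and the Cre line as well where HFCFD2W is compared, so these cannot be told apart.

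**Figure D4:**
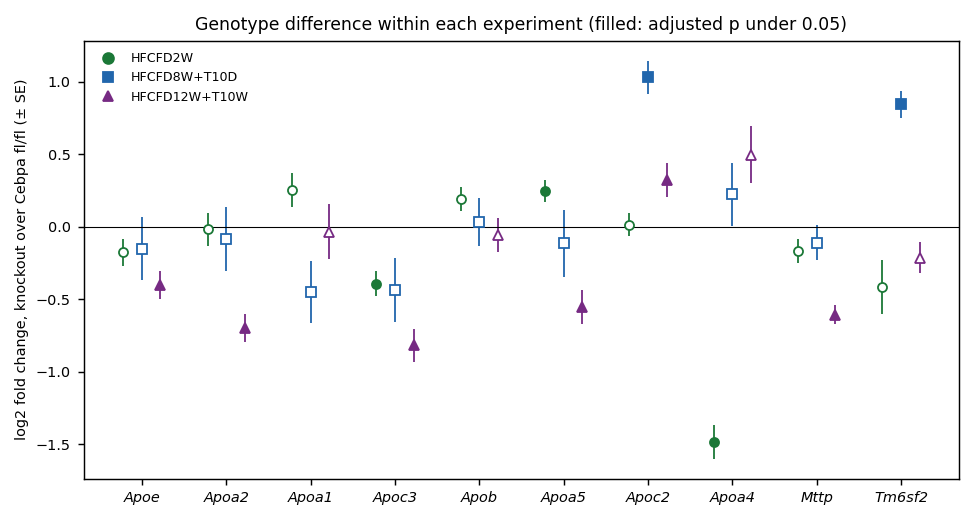
log2 fold change of knockout over Cebpa fl/fl (± SE, edgeR, n = 5 mice per group) for each gene in the 3 experiments; filled symbols passed at an adjusted p under 0.05. In HFCFD2W *Apoa4* and *Apoc3* passed as lower (-1.48 and -0.39) and *Apoa5* as higher (0.25). *Apoc2* and *Tm6sf2* passed as higher in HFCFD8W+T10D (1.03 and 0.84). In HFCFD12W+T10W 5 genes passed as lower and *Apoc2* as higher (0.32).

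The Cebpa fl/fl livers alone also differed between experiments. *Apoa1*, the main HDL gene, averaged 8177 ± 1102 CPM in HFCFD2W (SD, n = 5), against 4545 ± 906 CPM in HFCFD8W+T10D and only 3098 ± 777 CPM in HFCFD12W+T10W. Its log2 difference from HFCFD2W was -0.85 ± 0.19 (SE, adjusted p = 6.6e-04) for HFCFD8W+T10D and -1.40 ± 0.19 (SE, adjusted p = 2.9e-06) for HFCFD12W+T10W. *Apoa4* averaged 489.9 ± 85.2, 386 ± 67.7 and 139 ± 40.9 CPM, and passed for HFCFD12W+T10W against HFCFD8W+T10D, -1.47 ± 0.20 (SE, adjusted p = 1.7e-05), and against HFCFD2W, -1.82 ± 0.20 (SE, adjusted p = 1.3e-07). *Apoc3* averaged 1367 ± 129, 959 ± 86.9 and 751 ± 50.2 CPM, with -0.51 ± 0.16 (SE, adjusted p = 0.012) and -0.86 ± 0.16 (SE, adjusted p = 1.5e-04) against HFCFD2W. Each was lowest in HFCFD12W+T10W, but none passed at every step: HFCFD12W+T10W against HFCFD8W+T10D gave adjusted p of 0.054 for *Apoa1* and 0.17 for *Apoc3*, and HFCFD8W+T10D against HFCFD2W gave 0.16 for *Apoa4*. *Mttp* passed in all 3 comparisons of Cebpa fl/fl groups, with -0.27 ± 0.088 (SE, adjusted p = 0.015), -0.29 ± 0.088 (SE, adjusted p = 0.028) and -0.56 ± 0.088 (SE, adjusted p = 1.6e-05), in the order HFCFD8W+T10D against HFCFD2W, HFCFD12W+T10W against HFCFD8W+T10D and HFCFD12W+T10W against HFCFD2W. The first was lost without mouse 4 or 5 of HFCFD8W+T10D or mouse 4 of HFCFD2W, at -0.23 to -0.21, and the second without mouse 1, 2 or 3 of HFCFD8W+T10D or mouse 3 or 5 of HFCFD12W+T10W, at -0.29 to -0.25. *Apoc2* was higher in HFCFD12W+T10W than in HFCFD8W+T10D, 0.47 ± 0.10 (SE, adjusted p = 0.0031). *Apoa2*, *Apoa5*, *Apob*, *Apoe* and *Tm6sf2* passed in none under TMM. Under library totals *Apoc3* and *Mttp* no longer passed for HFCFD8W+T10D against HFCFD2W, at -0.32 (adjusted p = 0.055) and -0.07 (adjusted p = 0.32). The counts under TMM were 3 of 10 against 43.6% of all genes for HFCFD8W+T10D against HFCFD2W, 3 against 11.4% for HFCFD12W+T10W against HFCFD8W+T10D, and 4 against 39.1% for HFCFD12W+T10W against HFCFD2W. Higher calls made up 50.8%, 55.2% and 50.5% of all calls under TMM and 76.2%, 67.9% and 83.2% under library totals. Batch of mice, diet time and tamoxifen, and the mouse line where HFCFD2W is compared, cannot be told apart here either.

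Ratios of 2 genes within a library need no scaling factor. The ratio of *Apoc2*, the lipase activator, to *Apoc3*, the inhibitor, was chosen after its values were seen and is given without a test. In TPM it averaged 0.138 ± 0.0126 in Cebpa fl/fl and 0.185 ± 0.0118 in knockout livers of HFCFD2W (SD, n = 5). HFCFD8W+T10D had 0.169 ± 0.0275 and 0.503 ± 0.138, and HFCFD12W+T10W had 0.295 ± 0.0377 and 0.668 ± 0.155. Every knockout liver lay above every Cebpa fl/fl liver of its experiment, with ranges of 0.122 to 0.153 against 0.173 to 0.200, 0.136 to 0.196 against 0.318 to 0.668 and 0.237 to 0.342 against 0.5001 to 0.895. Of all 45 pairs of the 10 genes, 13, 13 and 17 had ratios without overlap in the 3 experiments, in the same order. The ratio of *Apoe* to *Apob* in HFCFD12W+T10W was 25.1 to 27.03 in Cebpa fl/fl and 18.7 to 21.4 in knockout livers, also without overlap and also given without a test. Its groups overlapped in HFCFD2W, at 22.2 to 28.3 against 16.6 to 24.9, and in HFCFD8W+T10D, at 23.9 to 30.5 against 17.1 to 27.9.

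After the mean of each group was removed, *Apoa2* and *Apoe* moved together most closely over the 30 libraries, with Pearson's r of 0.85 on log2 CPM, 0.67 on library totals and 0.60 on TPM. Such values share each library's scaling factor: 13 of the 45 pairs had r over 0.5 on TMM-scaled CPM, 1 on library totals and 2 on TPM. *Apoa4* and *Apoa1*, of the same cluster on chromosome 9, gave 0.11 on log2 CPM. Of all genes in the fit, those most like *Apoa4* by this measure were *Paqr4* (r = 0.67), *Slc25a29* (r = 0.65) and *Fam83a* (r = 0.65), as a description over 30 libraries.

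The other genes of the clusters were examined next. On chromosome 7, *Apoc1* and *Apoc4*, 2 further exchangeable apolipoprotein genes, lie between *Apoc2* and *Apoe*. *Apoc1* fell in HFCFD2W, -0.26 (adjusted p = 0.037), and in HFCFD12W+T10W, -0.56 (adjusted p = 1.3e-04), and gave -0.26 (adjusted p = 0.43) in HFCFD8W+T10D. *Apoc4* fell in the same 2 experiments, -0.33 (adjusted p = 0.024) and -0.21 (adjusted p = 0.033), and gave -0.10 (adjusted p = 0.76) in HFCFD8W+T10D, where *Apoc2* rose. Under library totals neither passed in HFCFD12W+T10W, at -0.19 (adjusted p = 0.054) for *Apoc1* and 0.16 (adjusted p = 0.071) for *Apoc4*. *Gm44805*, a readthrough gene that overlaps *Apoc2* and *Apoc4* on the same strand, averaged 10.0 to 19.8 CPM in Cebpa fl/fl livers and fell in HFCFD2W, -0.69 (adjusted p = 0.0048). It can share reads with both genes, which leaves the split of their counts uncertain. On chromosome 9, *Gm47528*, *Gm10680* and *Gm47544* overlap *Apoa4* or *Apoa5* on the opposite strand, and averaged at most 0.207 CPM in any group.

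Other genes of the pathway were described in 4 lists. Their median log2 fold changes are set beside medians over all genes of 0.01 in each experiment under TMM. Under library totals the median over all genes in HFCFD12W+T10W was 0.38. Of all genes tested, 8.60% rose and 8.09% fell in HFCFD2W, and 10.3% and 6.85% in HFCFD8W+T10D. In HFCFD12W+T10W 27.4% of all genes rose and 23.8% fell, or 56.6% and 7.72% under library totals. Of 17 other apolipoprotein and HDL genes, 1 rose and 4 fell of 16 tested in HFCFD2W. In HFCFD8W+T10D 4 rose and 3 fell of 16, and in HFCFD12W+T10W 3 rose and 9 fell of 16, or 4 and 4 under library totals. The medians were 0.040, 0.13 and -0.48 in the 3 experiments, and -0.11 in the last under library totals. *Apobec1*, which edits the *Apob* mRNA to the short form of the protein, rose in all 3, with log2 fold changes of 0.99, 0.85 and 1.10, while *Apob* itself passed in none under TMM. *Saa4*, a constitutive serum amyloid of HDL, fell in both tamoxifen experiments (-2.26 and -2.39), *Apon* fell in HFCFD2W (-0.80), and *Abcg1*, a cholesterol exporter, rose in HFCFD8W+T10D (1.00). Of 30 other genes of VLDL assembly and export, 3 rose and 1 fell of 30 in HFCFD2W. In HFCFD8W+T10D 1 rose and 4 fell of 30, and in HFCFD12W+T10W 2 rose and 14 fell of 30, or 12 and 7 under library totals. The medians were 0.059, 0.031 and -0.23 in the 3 experiments, and 0.15 in the last under library totals. *Dgat2*, which makes triglyceride, fell in all 3 (-0.32, -0.48 and -0.88). *Ces3b* and *Ces1d*, carboxylesterases of the endoplasmic reticulum, fell in HFCFD12W+T10W together with *Mttp* (-2.55 and -1.23), and *Ces3b* fell in HFCFD8W+T10D (-1.57). In HFCFD2W *Ces1d* rose instead, 0.79 (adjusted p = 0.034), and *Ces3b* gave 0.40 (adjusted p = 0.055). *Lpin1* and *Lpin2*, phosphatidate phosphatases, rose in HFCFD2W (2.12 and 0.84), and *Lpin2* fell in HFCFD8W+T10D (-1.26).

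Of 18 receptors, lipases and their regulators, 3 rose and 3 fell of 16 tested in HFCFD2W. In HFCFD8W+T10D 2 rose and 1 fell of 17, and in HFCFD12W+T10W 3 rose and 6 fell of 17, or 5 and 2 under library totals. The medians were 0.071, -0.021 and -0.29 in the 3 experiments, and 0.074 in the last under library totals. *Lpl*, the lipase on which APOC2, APOC3 and APOA5 act, rose in all 3 (1.87, 2.18 and 2.33). *Angptl4*, a lipase inhibitor, rose in HFCFD2W (1.12), and *Sorl1*, a sorting receptor, rose in HFCFD8W+T10D (1.19). Of 27 transcriptional regulators, *Cebpa* among them, 3 rose and 7 fell of 27 in HFCFD2W. In HFCFD8W+T10D 0 rose and 6 fell of 27, and in HFCFD12W+T10W 3 rose and 19 fell of 27, or 4 and 9 under library totals. The medians were -0.12, -0.22 and -0.51 in the 3 experiments, and -0.14 in the last under library totals. *Trib1*, a pseudokinase that lowers C/EBP proteins, fell in all 3 (-0.85, -0.84 and -1.07), as did *Nr1h4*, the bile acid receptor that represses *Apoc3* and induces *Apoc2* (-0.64, -0.44 and -0.79), which did not pass in HFCFD8W+T10D under library totals (-0.26, adjusted p = 0.23). *Nr1d1*, a circadian repressor, fell in HFCFD2W (-1.35), and *Mlxipl*, the carbohydrate-responsive factor, fell in HFCFD12W+T10W (-1.37). The other calls named from these lists passed in the same direction under library totals, and *Ces3b* also rose in HFCFD2W there (0.43, adjusted p = 0.041).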

How the data were processed

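Liver poly(A) mRNA of 30 mice was measured by stranded RNA-Seq, 1 library per mouse. The authors deposited RSEM expected counts per gene, without normalization, with 7996123 to 10257347 counts per library, and TPM values that the authors' RSEM run computed from them. The submitters' processing notes name Trimmomatic 0.36, STAR 2.5.1, Picard 1.84 and RSEM 1.2.22 with mm10. RSEM splits reads that fit several genes, so overlapping genes are uncertain. A further deposited table holds TMM-normalized signal values of 15010 genes, used in 1 alternative, and an FPKM table, not used here.

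Expected counts were rounded, since 3.25% were not whole. The analysis ran in R 4.3.3 with edgeR 4.0.16. filterByExpr kept 11068, 11990 and 12463 genes in the 3 experiments, all 10 genes described here among them, and libraries were scaled by TMM. Each experiment was fitted alone, genotypes were tested by quasi-likelihood F tests, and p-values were adjusted by Benjamini-Hochberg over all genes kept. Differences between experiments came from 1 joint fit of 12964 genes. Printed CPM are scaled over all 30 libraries, so their ratios can differ slightly from the fitted folds. log2 CPM use a prior count of 2. The fit was tested on simulated data. The SE of a log2 fold change comes from the quasi-likelihood test, whose dispersion is estimated from the mice of each group, so it includes the spread between mice. SD values are the spread between mice. No 2 libraries of a group agreed within sampling noise.

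The members and lists were chosen with earlier results of these data known. Named genes are the 10 genes, *Cebpa*, *Alb*, the genes between members of a cluster, the 3 genes most like *Apoa4*, and from each pathway list the genes that passed in all 3 experiments in 1 direction (at most 4), otherwise the 2 with the largest fold in each. A gene that this rule names is not reported here. *Rbp2*, *Fabp2*, *Sis*, *Alpi*, *Lct*, *Vil1*, *Cdx1* and *Cdx2* are markers named for their levels. Alternatives were DESeq2 1.42.0 (size factors and test), upper quartile, library totals (also for the pathway lists), no filter, the joint fit, limma 3.58.1 on the authors' log2 signal values with a pseudocount of 1, a replicate block, a fold over 2, and each mouse left out.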

Additional observations from a re-analysis of the deposited data

Results flagged for a closer look

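Among 60 values of the 10 genes by group, 1 mouse stood apart from the 4 others of its group by Dixon's criterion, which flags about 1 in 20 groups by chance. *Apoa5* was 1118 CPM in Cebpa fl/fl mouse 4 of HFCFD2W against 1175 to 1194 CPM in the other 4, a gap of 0.74 of the range.

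The joint edgeR fit of all libraries found 10 differences of the genotype effect between experiments, as log2 differences. Between HFCFD8W+T10D and HFCFD2W the effect was higher in the former for *Apoa4* (1.69), *Apoc2* (1.00) and *Tm6sf2* (1.24). Between HFCFD12W+T10W and HFCFD8W+T10D it was lower in the former for *Apoc2* (-0.74), *Mttp* (-0.53) and *Tm6sf2* (-1.08). Between HFCFD12W+T10W and HFCFD2W it was higher in the former for *Apoa4* (1.94) and lower for *Apoa2* (-0.72), *Apoa5* (-0.84) and *Mttp* (-0.48). Diet time, tamoxifen and batch of mice differ together between all experiments, and Cre line between HFCFD2W and the others, which cannot be told apart.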

How the results depend on the processing

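Under library totals alone the log2 fold changes in HFCFD8W+T10D turned to 0.060 for *Apoa2*, 0.022 for *Apoa5*, 0.00043 for *Apoe* and 0.060 for *Mttp*, and in HFCFD12W+T10W to 0.35 for *Apoa1*, 0.31 for *Apob* and 0.16 for *Tm6sf2*. Upper quartile normalization turned *Apoa1* to 0.048 and *Apob* to 0.025 in HFCFD12W+T10W. None of these had passed under TMM. Leaving out 1 mouse at a time gave ranges across 0 for *Apoa2* (-0.10 to 0.05) and *Apoc2* (-0.026 to 0.052) in HFCFD2W, for *Apoa2* (-0.30 to 0.041), *Apoa5* (-0.28 to 0.056) and *Apob* (-0.029 to 0.10) in HFCFD8W+T10D, and for *Apoa1* (-0.20 to 0.062) and *Apob* (-0.13 to 0.0024) in HFCFD12W+T10W.

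In HFCFD2W the 1 higher gene became 0 without the low-count filter, in the joint fit, with the replicate block and at a fold over 2, 2 with the DESeq2 test, and 0 to 1 with 1 mouse left out. The 2 lower genes became 1 in the joint fit, with the replicate block and at a fold over 2. In HFCFD8W+T10D the 2 higher genes became 1 at a fold over 2, and the 0 lower genes became 1 in the joint fit, where *Apoc3* passed, and 0 to 1 with 1 mouse left out. In HFCFD12W+T10W the 1 higher gene became 2 with upper quartile, no filter or the DESeq2 test, 3 under library totals, 0 with limma or a fold over 2, and 0 to 2 with 1 mouse left out, and the 5 lower genes became 3 under library totals, 6 with limma, where *Tm6sf2* passed (-0.27, adjusted p = 0.045), and 0 at a fold over 2. The 3 differences of effect between HFCFD12W+T10W and HFCFD8W+T10D became 3 to 5, the 5 being without knockout mouse 2 of HFCFD8W+T10D, and the 3 between Cebpa fl/fl livers of HFCFD8W+T10D and HFCFD2W became 1 under library totals and 2 to 4 with 1 mouse left out. The cause of these shifts was not tested.

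Same-numbered mice did not deviate together (correlations of -0.33 to 0.04, -0.07 to 0.16 and -0.05 to 0.22 in the 3 experiments). With the replicate block, *Apoa5* (0.26, adjusted p = 0.17) and *Apoc3* (-0.35, adjusted p = 0.072) in HFCFD2W and *Apoc2* (0.33, adjusted p = 0.051) in HFCFD12W+T10W did not pass, and *Apoa4* in HFCFD12W+T10W did (0.53, adjusted p = 0.030). Depth limits *Tm6sf2* most, at 11.4 to 34.6 CPM.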
